A study of Mus musculus with 8 samples.

Results

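The data compared here were RNA-seq libraries of Cav1KO and WT mouse embryonic fibroblasts (MEFs) on a stiff substrate, which are 4 of the 8 libraries of the series. The members were chosen by their labels alone, as the 2 libraries labelled Cav1KO and stiff and the 2 labelled WT and stiff. WT cells carry an intact Cav1 gene and Cav1KO cells come from mice in which it was disrupted. The study's methods name C57BL/6 for the Cav1KO mice of its in vivo work and give no strain for the MEFs. All cells were isolated from littermates, immortalized, seeded at low density on fibronectin-coated polyacrylamide gels of about 55 kPa, and lysed 24 h later. The other 4 libraries came from the same genotypes on a soft gel and were used to share an estimate of the spread and to test whether the genotype effect differed between substrates. Neither the number of immortalized lines per genotype nor whether the libraries of a group came from separate cultures is stated. Genotype and cell line therefore cannot be told apart, and p-values measure only the spread between these libraries, which may be technical.

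Caveolae are small flask-shaped pits of the plasma membrane, abundant in fibroblasts, adipocytes, endothelium and muscle. Caveolin-1, the product of Cav1, is the membrane-inserted scaffold of their coat outside striated muscle, and the cavins assemble around it on the cytosolic side. Caveolae flatten when the membrane is stretched, bind cholesterol-rich lipid, and have been tied to signalling by growth factor receptors, integrins and the transcriptional co-activator YAP, which stiff matrix drives into the nucleus.

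Expression is given in CPM, a gene's read count set against the scaled depth of its library. The stiff libraries held 17137635 to 19944952 reads on the 12528 listed genes, and 3 reads, the most that a count of 0 allows, were worth 0.151 to 0.177 CPM in them. Counting error is all that such a limit covers. Between 7.17% and 8.15% of a stiff library's signal came from its 10 most abundant genes. The spread between replicates exceeded counting error 11.6 times in WT and 17.8 times in Cav1KO, as chi-square over degrees of freedom. Log2 fold changes are Cav1KO minus WT of log2(CPM + 1), so that low genes show less change than their CPM, and ± gives the SE of the limma fit. A gene was called higher or lower at an adjusted p under 0.05 over the 12494 genes tested. Each genotype was represented by 2 libraries. Fibroblast identity was checked with 15 markers, of which 12 were listed, among them vimentin (Vim) at 3054 and 3128 CPM in WT and 1976 and 1812 CPM in Cav1KO. The blood and endothelial defining genes Ptprc, Pecam1 and Cdh5 and the epithelial genes Epcam and Krt8 were not among the listed genes.

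Cav1 separated the genotypes as labelled. It was at 949.8 and 1079 CPM in WT and 0.294 and 0.219 CPM in Cav1KO, the latter from 5 and 4 reads (log2 fold change -9.66 ± 0.14, limma adjusted p = 2.28e-09). The counts are per gene and do not resolve its exons. Beside it on chromosome 6, Cav2, which encodes the partner caveolin that needs caveolin-1 for its export from the Golgi, was at 108 and 127 CPM in WT and 58.1 and 70.7 CPM in Cav1KO (log2 fold change -0.86 ± 0.11, limma adjusted p = 3.50e-04). Of the 4 cavin genes, 3 were lower, by different amounts. Ptrf, encoding cavin-1, which is required for the coat to form, was at 697 and 623 CPM in WT and 406 and 309.9 CPM in Cav1KO (log2 fold change -0.89 ± 0.13, limma adjusted p = 7.05e-04). Prkcdbp, encoding cavin-3, was at 75.2 and 77.6 CPM in WT and 43.3 and 41.8 CPM in Cav1KO (log2 fold change -0.83 ± 0.08, limma adjusted p = 5.99e-05). Murc, encoding the muscle cavin-4, was near the limit of detection in Cav1KO, at 9.09 and 8.09 CPM in WT and 0.177 and 0.219 CPM in Cav1KO (log2 fold change -3.0 ± 0.14, limma adjusted p = 7.47e-07). In all 4 of these genes besides Cav1, both WT libraries lay above both Cav1KO libraries. Sdpr, encoding cavin-2, which shapes the curvature of the membrane, was at 38 and 30 CPM in WT and 56 and 39.2 CPM in Cav1KO and did not pass the test (log2 fold change 0.46 ± 0.18, limma adjusted p = 0.0602).

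A list of caveola coat genes also held genes of proteins that bind the coat or neck and of further associated proteins. Of its 13 genes tested, 7 were lower and 3 higher in Cav1KO, beside 26.6% and 25.0% of all genes. Their median log2 fold change was -0.27 against -0.025 over all genes. On soft 7 were lower and 4 higher, with a median of -0.50. Ehd2, encoding an ATPase of the caveola neck, did not pass the test (log2 fold change -0.026 ± 0.07), nor did its relative Ehd4 (-0.20 ± 0.14). Another relative, Ehd1, was at 180.4 and 173 CPM in WT and 148 and 144 CPM in Cav1KO (log2 fold change -0.27 ± 0.07). Pacsin2, encoding the F-BAR protein that binds the neck, was at 69 and 53.9 CPM in WT and 86.1 and 75.7 CPM in Cav1KO (log2 fold change 0.40 ± 0.12, limma adjusted p = 0.021), and Pacsin3 at 18.1 and 17.4 CPM in WT and 14.4 and 13.8 CPM in Cav1KO (log2 fold change -0.31 ± 0.11, limma adjusted p = 0.0459). Ror1, encoding a receptor that scaffolds cavin-1 and caveolin-1, was higher in Cav1KO, at 3.01 and 2.17 CPM in WT and 6.41 and 6.14 CPM in Cav1KO (log2 fold change 1.03 ± 0.15, limma adjusted p = 5.88e-04). Filip1l, the remaining member called higher, was at 2.81 and 1.31 CPM in WT and 6.83 and 3.51 CPM in Cav1KO. The calls of Ehd1, Pacsin2, Pacsin3 and Filip1l were each lost in at least 1 fit that left out a stiff library (Ehd1 only without the first WT library), and 5 lower calls and 1 higher call held without any 1 of them. Among 29 genes of other endocytic routes, 15 were lower and 5 higher (Dab2, Arhgap26, Flot1, Epn1 and Ap2s1), and Dab2, an adaptor of clathrin-mediated uptake of integrins and lipoprotein receptors, was at 27.1 and 26.4 CPM in WT and 128 and 121 CPM in Cav1KO (log2 fold change 2.18 ± 0.08, limma adjusted p = 1.26e-07). The lower count fell to 8 without the first WT stiff library and to 9 without the second Cav1KO stiff library.

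Over all genes, 3127 were higher in Cav1KO on stiff (25.0% of those tested) and 3329 were lower (26.6%), so more genes were called than not (51.7%). Most differences were small. At least 2-fold differences were called for 830 higher genes (6.64%) and 883 lower genes (7.07%), and a log2 fold change of at least 3 for 85 higher and 128 lower genes. With every library of one genotype above both of the other, 35.5% of genes were higher and 37.2% lower. The scatter of gene levels shows these differences on both sides of the diagonal.

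**Figure D1:**
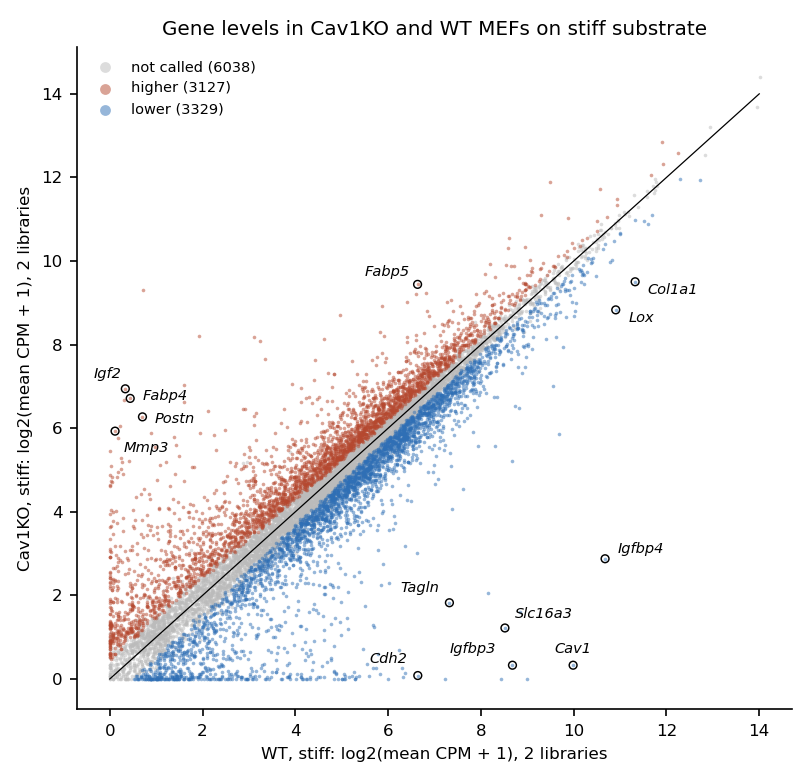
Each point is 1 of the 12494 genes tested, with log2(mean CPM + 1) of the 2 WT stiff libraries on the x axis and of the 2 Cav1KO stiff libraries on the y axis, coloured by the limma call at an adjusted p under 0.05. The called genes lie on both sides of the line of equality, 3127 above and 3329 below, and circled genes are named in the text.

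Among protein-coding genes with a mean of at least 5 CPM, the largest falls after Cav1 were secreted regulators of insulin-like growth factors. Igfbp3, whose product carries IGF in the extracellular space and which is also a YAP target, was at 415 and 403 CPM in WT and 0.294 and 0.219 CPM in Cav1KO, a 1594-fold difference resting on 5 and 4 reads in Cav1KO. Igfbp4 was at 1567 and 1705 CPM in WT and 6.0 and 6.69 CPM in Cav1KO (log2 fold change -7.80 ± 0.11, limma adjusted p = 2.28e-09). Both WT libraries were high and both Cav1KO libraries close to the limit of detection for Igfbp3, whereas Igfbp4 kept a low but countable level. Slc16a3, encoding the lactate exporter MCT4, was at 350.1 and 381 CPM in WT and 1.24 and 1.42 CPM in Cav1KO, a 275-fold difference. Thbd, encoding thrombomodulin, an anticoagulant receptor of the cell surface, was at 467 and 454 CPM in WT and 2.35 and 1.7 CPM in Cav1KO, a 227-fold difference. Slc38a4, an amino acid transporter gene, was at 276 and 292 CPM in WT and 3.06 and 3.23 CPM in Cav1KO. No overlap between genotypes was a condition of this set. Other falls in this set ended at or under 3 reads in both Cav1KO libraries, so that only a bound can be given. Cdh2, encoding N-cadherin, the main classical cadherin of fibroblast contacts, was at 110.5 and 86.9 CPM in WT and at least 579-fold lower in Cav1KO. Hspb1, encoding the actin-associated chaperone HSP27, was at 80.7 and 78 CPM in WT and at least 465-fold lower. Pdlim4, encoding an actin-binding PDZ and LIM protein, was at 78.1 and 84.7 CPM in WT and at least 477-fold lower. These 3 genes take part in cell contacts or bind actin. S1pr3, a sphingosine 1-phosphate receptor gene, was at 46 and 48.7 CPM in WT and at least 278-fold lower. The floor for these bounds was 3 reads in a library, averaged over the libraries of the lower genotype.

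Under the same conditions the largest rises ended at more than 30 CPM in Cav1KO, most of them from almost no reads in WT. Igf2, encoding the fetal growth factor IGF-II, was at 0.352 and 0.171 CPM in WT and 144 and 101 CPM in Cav1KO (log2 fold change 6.59 ± 0.17, limma adjusted p = 3.00e-08). Fabp4, encoding the fatty acid binding protein of adipocytes and macrophages, was at 0.201 and 0.513 CPM in WT and 102 and 106 CPM in Cav1KO (log2 fold change 6.28 ± 0.17, limma adjusted p = 3.72e-08). Postn, encoding the matrix protein periostin, was at 0.804 and 0.456 CPM in WT and 93.3 and 59.2 CPM in Cav1KO (log2 fold change 5.54 ± 0.20, limma adjusted p = 1.68e-07). The second Cav1KO library was the lower one for Igf2 and Postn but not for Fabp4. Renbp, a gene of renin binding and amino sugar metabolism, was at 0.10 and 0.228 CPM in WT and 60.2 and 69.8 CPM in Cav1KO. Rasl11a, a gene of the RAS-like GTPase family, was already expressed in WT, at 7.88 and 8.89 CPM in WT and 240.5 and 304 CPM in Cav1KO (log2 fold change 4.86 ± 0.14, limma adjusted p = 3.88e-08). It was the only one of the 12 largest rises with more than 3 CPM in a WT library. Lbp, encoding the lipopolysaccharide binding protein of the acute phase, was at 0.854 and 0.855 CPM in WT and 60.2 and 56.3 CPM in Cav1KO. Tmem26 was at 2.56 and 1.48 CPM in WT and 126 and 134 CPM in Cav1KO. Mcpt8, encoding a mast cell and basophil protease, was at 0.10 and 0.285 CPM in WT and 35.3 and 36.2 CPM in Cav1KO. Nrxn2, a neurexin gene, was at 0.251 and 0.114 CPM in WT and 42.2 and 33.6 CPM in Cav1KO. Lgi2 was at 0.0502 and 0.228 CPM in WT and 53.1 and 54.3 CPM in Cav1KO. Ulbp1, encoding a ligand of the NKG2D receptor, was at 0.201 and 0.456 CPM in WT and 37.4 and 35.5 CPM in Cav1KO. In all of these the Cav1KO libraries lay far above WT. Mpg, a DNA repair glycosylase gene, was at 0.0502 and 0 CPM in WT and 31.5 and 35.3 CPM in Cav1KO, with 1 and 0 reads in WT.

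Some genes were present in one genotype only at this depth. At most 3 reads in both libraries of one genotype and at least 5 CPM in both of the other were found for 110 genes, of which 80 were detected in WT and 30 in Cav1KO. Several of them are pseudogenes that share most of their sequence with a parent gene, such as Rps3a2 with 84.9% of its windows of 60 bases shared, and are uncertain. Among protein-coding genes with at most 5% of windows shared there were 73 and 23. Those seen in WT included transcription factors of the embryonic body plan. Sox2, a factor of neural and pluripotent progenitors, was at 36.4 and 28.2 CPM in WT and 0 and 0 CPM in Cav1KO. Zic1, a factor of the dorsal neural tube and somites, was at 36.4 and 33.5 CPM in WT and 0 and 0.0548 CPM in Cav1KO. En1, a factor of the midbrain and ventral limb, and Zic2 were at 18.4 and 17.2 CPM and 17.4 and 15.2 CPM in WT. None of these 4 genes had more than 2 reads in a Cav1KO library. Khdrbs3, a splicing regulator gene, was at 37.4 and 39 CPM, Cspg4, encoding the pericyte proteoglycan NG2, at 20.9 and 16.9 CPM and Crabp1, a retinoic acid binding protein gene, at 19.6 and 23.4 CPM in WT. Those seen in Cav1KO included Wnt10a at 14.5 and 14.3 CPM, the kidney and midbrain factor Pax2 at 11.1 and 7.34 CPM, the imprinted gene Peg3 at 13.5 and 9.7 CPM, Ch25h, encoding cholesterol 25-hydroxylase, at 8.47 and 11.8 CPM, Nnmt, encoding nicotinamide N-methyltransferase, at 24.9 and 29.9 CPM and the calcium and phosphate regulator Stc1 at 30.7 and 29.5 CPM. In bulk RNA, fewer cells that express a gene and less RNA per cell cannot be told apart.

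Gene groups are described below by the number of members tested and called and by the median log2 fold change, and have no test of their own. Each count is to be read beside the share of all genes, 25.0% higher and 26.6% lower. A lack of overlap between the genotypes is to be read beside 35.5% of all genes higher and 37.2% lower in that way. Most named members were picked by their call and size of change, so their lack of overlap adds no support. Where 5 or fewer members were called in a direction, they are named where reported here, and those outside the rule for named genes were chosen after their values were seen. For comparison, 1956 of the 3127 genes higher on stiff were also higher on soft (62.6%) and 2357 of the 3329 lower genes also lower (70.8%). Of all genes tested, 16.8% were called higher and 17.2% lower whichever of the 4 stiff libraries was left out, for comparison with the counts of members whose calls held. On soft itself 3014 genes were higher (24.1%) and 3735 lower (29.9%). The genotype effect differed between substrates for 750 genes in the positive direction, more positive on stiff (6.0%), and 559 in the negative direction (4.47%). These 2 counts depended on the libraries and ranged from 74 to 1689 and from 36 to 1747 when 1 library was left out.

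YAP and its paralogue TAZ have no DNA-binding domain and reach promoters and enhancers through TEAD factors. Their activity is read from target genes such as Ctgf and Cyr61, which encode matricellular proteins, and Ankrd1, which encodes a nuclear ankyrin repeat protein. These 3 genes all fell in Cav1KO on stiff. Ctgf was at 19.2 and 17.6 CPM in WT and 6.53 and 4.66 CPM in Cav1KO (log2 fold change -1.57 ± 0.18, limma adjusted p = 1.49e-04). Cyr61 was at 266 and 237 CPM in WT and 141 and 126 CPM in Cav1KO (log2 fold change -0.91 ± 0.10, limma adjusted p = 8.88e-05). Ankrd1 was at 27 and 26.7 CPM in WT and 9.3 and 8.11 CPM in Cav1KO (log2 fold change -1.52 ± 0.13, limma adjusted p = 2.61e-05). In each of them both WT libraries lay above both Cav1KO libraries. The letters CATTCC, the core of the TEAD binding site, or their complement GGAATG were searched in the 250 bases before the RefSeq start of each target on both strands. They were found in 7 of the 16 targets with an entry, beside 12.6% of all 32851 windows. A target with several windows counted if any of them held a match, whereas that share is of single windows. The same holds for the elements of the other gene groups below. Windows of 3 targets that fell are shown for their matches, in the RefSeq sequence of GRCm38.p6, written along the gene's strand with the matches in capitals.
Cyr61, chr3:145649986-145650235, minus strand: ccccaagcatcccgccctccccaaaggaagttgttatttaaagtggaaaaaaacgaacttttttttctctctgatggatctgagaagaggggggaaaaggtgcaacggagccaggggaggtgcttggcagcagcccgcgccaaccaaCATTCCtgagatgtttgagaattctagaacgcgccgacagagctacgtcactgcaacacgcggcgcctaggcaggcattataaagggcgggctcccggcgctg
Ankrd1, chr19:36119845-36120094, minus strand: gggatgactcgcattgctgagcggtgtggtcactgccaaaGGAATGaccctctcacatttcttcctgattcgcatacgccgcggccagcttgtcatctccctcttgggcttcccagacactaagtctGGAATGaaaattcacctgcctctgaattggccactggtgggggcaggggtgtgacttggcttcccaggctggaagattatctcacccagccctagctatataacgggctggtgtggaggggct
Amotl2, chr9:102717554-102717803, plus strand: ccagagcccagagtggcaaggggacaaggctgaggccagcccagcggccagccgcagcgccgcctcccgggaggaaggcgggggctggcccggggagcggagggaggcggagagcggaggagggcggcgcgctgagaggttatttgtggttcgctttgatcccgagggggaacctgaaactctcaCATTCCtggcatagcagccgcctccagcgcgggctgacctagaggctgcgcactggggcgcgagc
Cyr61 held 1 match, beginning 103 bases before the start, Ankrd1 held 2, at 210 and 123 bases, and Amotl2 held 1, at 65 bases. A match is a description of letters and not a bound site.

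Of the 22 core YAP targets, 13 were lower and 1 higher in Cav1KO, with a median log2 fold change of -0.56, and 9 of the lower calls held without any 1 of the stiff libraries. Igfbp3, above, had the largest fall. Fjx1, encoding a secreted regulator of planar polarity, was at 7.88 and 8.09 CPM in WT and 1.18 and 0.932 CPM in Cav1KO (log2 fold change -2.13 ± 0.16). Ajuba, encoding a LIM protein that binds LATS kinases, was at 136 and 139.6 CPM in WT and 54 and 54.9 CPM in Cav1KO (log2 fold change -1.32 ± 0.08). Crim1, a transmembrane binder of BMPs, was at 108 and 91.5 CPM in WT and 51.5 and 41.7 CPM in Cav1KO and F3, the tissue factor gene that starts coagulation, at 45.3 and 41.7 CPM in WT and 20.4 and 19.9 CPM in Cav1KO. Thus 4 further targets were lower by more than 2-fold with no overlap of the genotypes. Smaller falls were seen for Amotl2 (log2 fold change -0.61 ± 0.17, limma adjusted p = 0.0152), Dock5 (log2 fold change -0.65 ± 0.16), Myof (-0.66 ± 0.23), Ptpn14 (-0.51 ± 0.13) and the receptor kinase gene Axl (-0.28 ± 0.07), of which only that of Axl held without any 1 of the stiff libraries. The others were lost without the first WT library and, but for Ptpn14, also without the second Cav1KO library. Foxf2, a mesenchymal forkhead factor gene, was the only member that rose, from 37.8 and 38.9 CPM in WT to 75.9 and 81 CPM in Cav1KO (log2 fold change 1.01 ± 0.08, limma adjusted p = 1.46e-05). Lats2, Amotl1, Nt5e, Arhgef17, Gadd45b, Asap1, Rbms3 and Nuak2 did not pass the test, with log2 fold changes between -0.29 for Lats2 and 0.19 for Nt5e. On soft, 11 members were lower and 6 higher. The difference of the genotype effects was called for Cyr61 (-0.63 ± 0.14, limma adjusted p = 0.031), Amotl1 (-1.59), Rbms3 (-0.92) and Nuak2 (-0.82), all more negative on stiff, and for Igfbp3 (0.76). Igfbp3 was near 0 in Cav1KO on both substrates, so that its value follows WT.

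The regulators of the pathway moved less. Yap1 itself was at 150.2 and 141 CPM in WT and 159 and 153 CPM in Cav1KO and did not pass the test (log2 fold change 0.10 ± 0.07, limma adjusted p = 0.26). Wwtr1, which encodes TAZ, was at 152 and 159 CPM in WT and 337 and 354 CPM in Cav1KO, more than 2-fold higher in both Cav1KO libraries than in either WT library (log2 fold change 1.15 ± 0.07, limma adjusted p = 2.97e-06). Of the TEAD genes, Tead2 was higher (161 and 175 CPM in WT and 239 and 275 CPM in Cav1KO, log2 fold change 0.61 ± 0.09), and Tead3 (-0.60 ± 0.12) and Tead4 (-1.07 ± 0.14) were lower. Tead1 did not pass the test (-0.065 ± 0.16). Among the kinases and their activators, Lats1 was at 53.4 and 46.5 CPM in WT and 40.7 and 32.8 CPM in Cav1KO (log2 fold change -0.44 ± 0.13, limma adjusted p = 0.0217, a call lost without the first WT or the second Cav1KO stiff library) and Nf2, encoding merlin, at 74.2 and 60.3 CPM in WT and 63.8 and 55.1 CPM in Cav1KO (log2 fold change -0.17 ± 0.12, not called). Dchs1, a giant protocadherin gene that acts upstream, was at 4.62 and 3.93 CPM in WT and 0.471 and 0.11 CPM in Cav1KO (log2 fold change -2.04 ± 0.18, limma adjusted p = 2.90e-05). In all, 4 of 25 genes were higher, namely Wwtr1, Tead2, Sav1 (a call lost without the first WT stiff library) and Mob1b, and 6 lower, and the lower count was 10 without the first Cav1KO stiff library. The 14-3-3 proteins hold phosphorylated YAP in the cytosol. Of the 6 genes listed, Ywhaz was at 1135 and 1183 CPM in WT and 1424 and 1493 CPM in Cav1KO (log2 fold change 0.33 ± 0.07, limma adjusted p = 0.0049, with 14.5% of its windows shared and so uncertain) and Ywhag at 589.9 and 583 CPM in WT and 519 and 512 CPM in Cav1KO (log2 fold change -0.19 ± 0.06, limma adjusted p = 0.0361, a call lost when any 1 stiff library was left out). Ywhab, Ywhae, Ywhah and Ywhaq did not pass the test, with log2 fold changes of 0.21, -0.16, -0.14 and 0.10.

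The serum response factor SRF, with its actin-sensing co-activators MRTF-A and MRTF-B, drives genes of the contractile cytoskeleton through a promoter element called the CArG box. In Cav1KO on stiff, 20 of 30 such targets were lower and 5 higher, with a median log2 fold change of -0.56, and 19 of the lower calls held without any 1 of the stiff libraries. Tagln, encoding the smooth muscle actin-bundling protein SM22, was at 151 and 167 CPM in WT and 2.18 and 2.9 CPM in Cav1KO (log2 fold change -5.50 ± 0.15, limma adjusted p = 3.46e-08). Myl9, encoding the regulatory light chain of smooth muscle and non-muscle myosin, was at 29.2 and 32.1 CPM in WT and 1.18 and 0.986 CPM in Cav1KO (log2 fold change -3.93 ± 0.17, limma adjusted p = 4.11e-07). Actg2, the enteric smooth muscle actin gene, was at 29.2 and 31.4 CPM in WT and 1.53 and 1.64 CPM in Cav1KO (log2 fold change -3.60 ± 0.13, limma adjusted p = 1.56e-07). Each was well expressed in both WT libraries and at under 3 CPM in both Cav1KO libraries. Cnn1, encoding calponin, was at 7.53 and 7.18 CPM in WT and 0.235 and 0.0548 CPM in Cav1KO (log2 fold change -2.87 ± 0.18). Acta2, the smooth muscle actin gene that marks myofibroblasts, chosen after its values were seen, was at 966 and 1093 CPM in WT and 417 and 398 CPM in Cav1KO (log2 fold change -1.33 ± 0.10, limma adjusted p = 8.96e-06). The members called higher were Mylk, Actb, Tagln2, Zyx and Itgb1, of which the Actb call was lost in 3 of the 4 fits that left out a stiff library and with quantile normalization. Mylk, the myosin light chain kinase gene, went from 0.402 and 0.399 CPM in WT to 3.71 and 3.34 CPM in Cav1KO (log2 fold change 1.69 ± 0.19, limma adjusted p = 1.13e-04), and Zyx, encoding the adhesion protein zyxin, from 390.0 and 385 to 612 and 542 CPM (log2 fold change 0.57 ± 0.08). On soft, 14 were lower and 10 higher, with a median log2 fold change of -0.085, and the difference of the effects was called in 10 members, all more negative on stiff. The CArG box was present before the start of 7 of 25 targets with an entry, beside 1.47% of all windows. The window of Myl9 is shown because its gene had the second largest fall of the group and holds 1 match, in capitals, 161 bases before the start (GRCm38.p6).
Myl9, chr2:156775214-156775463, plus strand: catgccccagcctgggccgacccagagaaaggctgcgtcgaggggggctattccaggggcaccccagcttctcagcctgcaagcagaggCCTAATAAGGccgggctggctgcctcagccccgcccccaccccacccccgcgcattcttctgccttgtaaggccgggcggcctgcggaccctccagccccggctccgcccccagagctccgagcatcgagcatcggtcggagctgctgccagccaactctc

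Actomyosin contractility is set by myosin, its light chain kinase and phosphatase, and small GTPases upstream of them. Of 31 such genes 14 were lower and 4 higher, the latter being Mylk, Rnd1, Rnd3 and Ppp1cb, of which the Ppp1cb call was lost without the first WT or the second Cav1KO stiff library. Besides Myl9, Myl12b, encoding another regulatory light chain, was at 53.1 and 54.4 CPM in WT and 7.24 and 7.67 CPM in Cav1KO (log2 fold change -2.70 ± 0.09, limma adjusted p = 9.70e-08). Rhob, an endosomal small GTPase gene, was at 138 and 153 CPM in WT and 48.4 and 54.3 CPM in Cav1KO (log2 fold change -1.48 ± 0.09, limma adjusted p = 3.08e-06). Rnd1, a gene of an atypical small GTPase, was at 10.5 and 10.8 CPM in WT and 25.2 and 24.6 CPM in Cav1KO (log2 fold change 1.15 ± 0.14, limma adjusted p = 1.79e-04). The genotypes did not overlap in any of the 3.

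Focal adhesions join integrins to actin. Of 41 adhesion genes 23 were lower in Cav1KO and 3 higher (Zyx, Parva and Evl), with a median log2 fold change of -0.50. Pdlim1, encoding a partner of alpha-actinin, was at 39.4 and 42 CPM in WT and at 2 and 0 reads in Cav1KO, at least 239-fold lower. Sorbs3, encoding vinexin, was at 19.2 and 20.4 CPM in WT and 4.59 and 3.01 CPM in Cav1KO (log2 fold change -2.14 ± 0.17, limma adjusted p = 1.56e-05). Parvb, encoding beta-parvin of the integrin-linked kinase complex, was at 69.1 and 62.3 CPM in WT and 18.2 and 18.4 CPM in Cav1KO (log2 fold change -1.79 ± 0.12, limma adjusted p = 7.30e-06). Fblim1, encoding migfilin, was at 37.3 and 42.1 CPM in WT and 12.5 and 11.2 CPM in Cav1KO. All 4 showed a gap between the genotypes. On soft the same list had 16 lower and 8 higher members and a median of 0.074, and the effects differed in 11 members in the negative direction and 1 in the positive. Of 14 integrin subunit genes, 9 were lower and 2 higher (Itgb1 and Itgb7). Itga5, the fibronectin receptor alpha chain gene, was at 186 and 155 CPM in WT and 79.9 and 63.8 CPM in Cav1KO (log2 fold change -1.24 ± 0.13, limma adjusted p = 8.88e-05), and the RGD-binding chain genes Itgav at 332 and 304 CPM in WT and 166 and 162 CPM in Cav1KO (log2 fold change -0.95 ± 0.07, limma adjusted p = 1.21e-05) and Itgb3 at 5.27 and 5.42 CPM in WT and 1.59 and 1.48 CPM in Cav1KO (log2 fold change -1.32 ± 0.20, limma adjusted p = 8.09e-04). The collagen receptor chain gene Itga11 was at 9.29 and 6.61 CPM in WT and 3.53 and 1.86 CPM in Cav1KO and the laminin receptor chain gene Itga3 at 70 and 62.1 CPM in WT and 44.2 and 35.8 CPM in Cav1KO. The effect was more negative on stiff than on soft for Itga5 (difference -0.76 ± 0.18, limma adjusted p = 0.0414) and for Itga3 (difference -0.75 ± 0.16, limma adjusted p = 0.031).

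Cell junction genes showed the same direction, with 17 of 27 lower and 5 higher (Cdh11, Pvrl1, Pvrl2, Jam2 and Jam3), of which the Pvrl1 call was lost without the first Cav1KO or the second WT stiff library. Along with Cdh2, described above, Cdh3, encoding P-cadherin, was at 33.9 and 30.4 CPM in WT and at least 189-fold lower in Cav1KO. Cdh13, encoding the GPI-anchored T-cadherin, was at 22.3 and 21.7 CPM in WT and at least 129-fold lower. Pvrl3, encoding nectin-3, was at 40.8 and 45.3 CPM in WT and 0.588 and 0.712 CPM in Cav1KO (log2 fold change -4.74 ± 0.13, limma adjusted p = 3.46e-08). In contrast Cdh11, encoding the mesenchymal cadherin OB-cadherin and chosen after its values were seen, went from 21.4 and 19.4 CPM in WT to 216 and 179.8 CPM in Cav1KO (log2 fold change 3.21 ± 0.10, limma adjusted p = 6.74e-08). The plot of library values shows Cdh2 beside genes of the caveola coat and YAP targets.

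**Figure D2:**
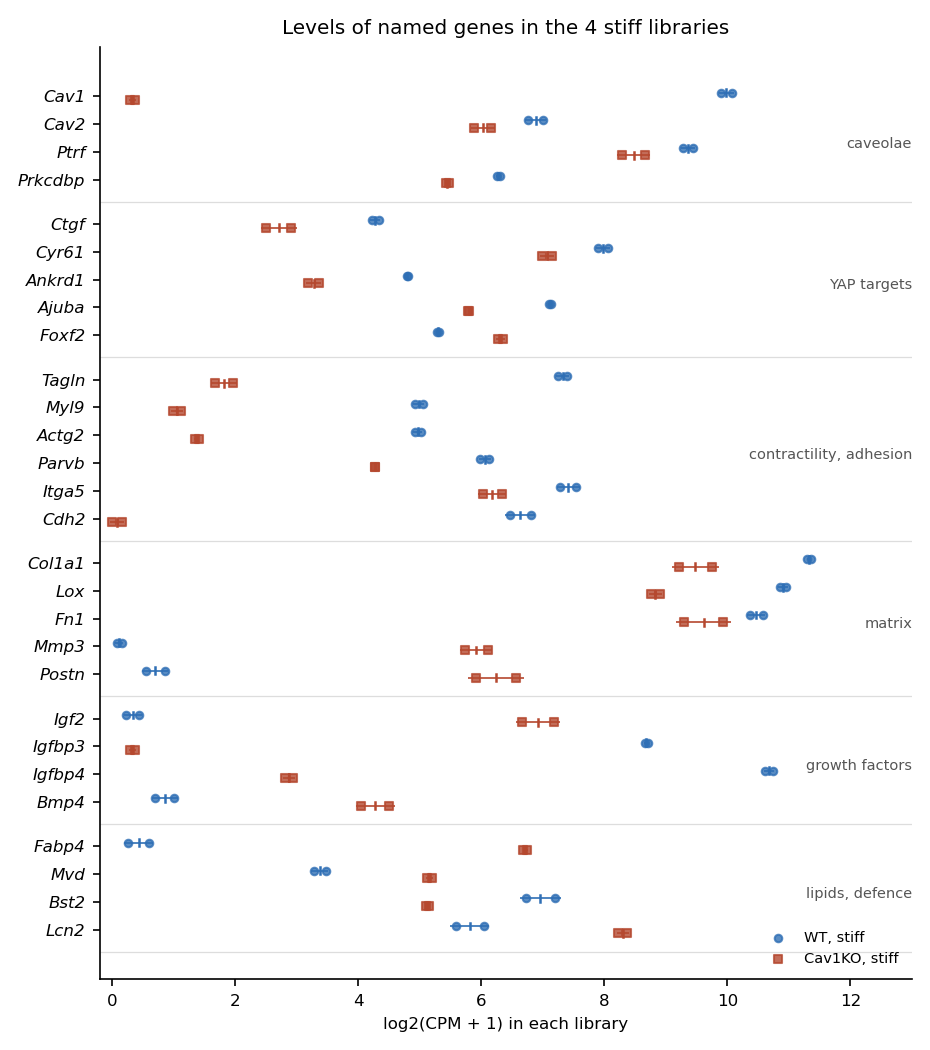
Points are log2(CPM + 1) of each library for named genes, with circles for WT and squares for Cav1KO on stiff, a short bar at the mean of the 2 libraries and a line of 1 SD to each side. For every gene drawn the 2 genotypes do not overlap, and Mmp3, Postn, Igf2 and Fabp4 are near 0 in WT while Cav1, Cdh2 and Igfbp3 are near 0 in Cav1KO. Of all genes tested, 35.5% were higher and 37.2% lower without overlap.

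Collagens were among the groups with the largest share of lower members, 16 of 22, with 2 higher (Col8a1 and Col18a1) and a median log2 fold change of -0.91. Col1a1, encoding the main chain of fibrillar type I collagen, was at 2612 and 2515 CPM in WT and 859 and 591 CPM in Cav1KO (log2 fold change -1.85 ± 0.16, limma adjusted p = 2.35e-05). The type IV chains of the basement membrane fell further. Col4a1 was at 27.7 and 18 CPM in WT and 0.353 and 0.11 CPM in Cav1KO (log2 fold change -4.25 ± 0.25, limma adjusted p = 2.73e-06), Col4a2, its neighbour on a shared promoter, was at 32.3 and 24.2 CPM in WT and at least 166-fold lower, and Col4a5 was at 40 and 35.3 CPM in WT and 5.24 and 3.78 CPM in Cav1KO (log2 fold change -2.82 ± 0.13, limma adjusted p = 8.25e-07). Col2a1, the cartilage collagen gene, was at 38.5 and 34.2 CPM in WT and at least 213-fold lower. On soft only 8 collagens were lower and 5 were higher, with a median of -0.10, and the genotype effects differed in 11 members in the negative and 3 in the positive direction. For Col1a1 that difference was -1.86 ± 0.22, limma adjusted p = 0.00457 and its log2 fold change on soft was 0.016.

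Enzymes that modify and cross-link collagen followed, with 16 of 22 lower and none higher. Lox, encoding lysyl oxidase, was at 1847 and 1990.3 CPM in WT and 479 and 430.3 CPM in Cav1KO (log2 fold change -2.08 ± 0.08, limma adjusted p = 3.00e-07). Loxl2, encoding a lysyl oxidase relative, was at 48.3 and 42.5 CPM in WT and 0.235 and 0.329 CPM in Cav1KO (log2 fold change -5.18 ± 0.14, limma adjusted p = 3.50e-08), and Plod2, encoding the telopeptide lysyl hydroxylase, at 86.1 and 81.3 CPM in WT and 18.8 and 18 CPM in Cav1KO (log2 fold change -2.13 ± 0.08, limma adjusted p = 2.54e-07). Loxl3 was at 33.9 and 33.3 CPM in WT and 15.2 and 12.9 CPM in Cav1KO, and Bmp1, encoding the procollagen C-proteinase, at 40.9 and 39.3 CPM in WT and 18.5 and 14.1 CPM in Cav1KO. Both WT libraries exceeded both Cav1KO libraries in all 5. Among 32 matrix glycoprotein genes 17 were lower and 3 higher (Postn, Thbs2 and Fbln1). Fibronectin (Fn1) was at 1524 and 1316 CPM in WT and 975 and 625 CPM in Cav1KO (log2 fold change -0.86 ± 0.19, limma adjusted p = 0.00542), tenascin C (Tnc) at 80.4 and 54.2 CPM in WT and 21.9 and 12.8 CPM in Cav1KO (log2 fold change -1.91 ± 0.26, limma adjusted p = 3.96e-04), fibrillin 2 (Fbn2) at 29.1 and 26.8 CPM in WT and 2.18 and 1.32 CPM in Cav1KO (log2 fold change -3.41 ± 0.18, limma adjusted p = 1.61e-06) and perlecan (Hspg2) at 548 and 547 CPM in WT and 279 and 197 CPM in Cav1KO (log2 fold change -1.22 ± 0.17, limma adjusted p = 4.95e-04). Fn1 fell on stiff but rose on soft, with a log2 fold change of 0.81 there and a difference of -1.66 ± 0.27, limma adjusted p = 0.0136. Of the 32 members, 15 had a more negative effect on stiff and 2 a more positive one.

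Matrix proteases and their inhibitors were divided, with 11 of 26 higher and 11 lower. Mmp3, encoding stromelysin 1, was at 0.0502 and 0.114 CPM in WT and 52.3 and 67.7 CPM in Cav1KO (at least 373-fold higher, with 6.31% of windows shared and so uncertain). Ctsl, encoding cathepsin L, was at 362 and 399 CPM in WT and 1239.6 and 1304 CPM in Cav1KO (log2 fold change 1.74 ± 0.10, limma adjusted p = 3.16e-06), and Adamts5, encoding an aggrecanase, at 5.32 and 5.64 CPM in WT and 39 and 27 CPM in Cav1KO (log2 fold change 2.37 ± 0.18, limma adjusted p = 1.28e-05). Timp3, encoding a matrix-bound inhibitor of metalloproteases, fell from 744 and 750.5 CPM in WT to 135 and 121 CPM in Cav1KO (log2 fold change -2.54 ± 0.07, limma adjusted p = 4.56e-08). The membrane protease gene Mmp16 was at 20.9 and 17.8 CPM in WT and 0.353 and 0.658 CPM in Cav1KO. Adam12, of the same kind, was at 20.3 and 15.3 CPM in WT and 0.824 and 0.274 CPM in Cav1KO. The genotypes did not overlap in any gene of this group named here.

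Growth factor pathways changed at the level of ligands, receptors and inhibitors. For IGF, the ligand gene Igf2 rose as described, Igfbp2 was at 37 and 41.7 CPM in WT and 146 and 165 CPM in Cav1KO (log2 fold change 1.95 ± 0.09, limma adjusted p = 9.24e-07) and Igfbp6 at 15.4 and 15.7 CPM in WT and 21.7 and 29.5 CPM in Cav1KO (log2 fold change 0.67 ± 0.13, limma adjusted p = 0.00311), while Igfbp3 and Igfbp4 were nearly lost, and Igfbp7 (-0.10) and Igfbp5, at 4 reads or fewer in every stiff library, did not pass the test. For TGF-beta and BMP, 20 of 34 genes were lower and 9 higher. The type I receptor gene Tgfbr1 was at 41.9 and 44.5 CPM in WT and 128 and 151 CPM in Cav1KO (log2 fold change 1.66 ± 0.09, limma adjusted p = 2.04e-06). The ligand genes Bmp4 and Inhba moved apart, Bmp4 at 1.0 and 0.627 CPM in WT and 21.7 and 15.6 CPM in Cav1KO (log2 fold change 3.43 ± 0.19, limma adjusted p = 1.95e-06) and Inhba, encoding the activin A subunit, at 21.3 and 16.1 CPM in WT and 2.0 and 2.08 CPM in Cav1KO (log2 fold change -2.68 ± 0.20, limma adjusted p = 1.32e-05). The BMP antagonist gene Grem1 was at 28.4 and 21.5 CPM in WT and 186 and 130.3 CPM in Cav1KO (log2 fold change 2.61 ± 0.17, limma adjusted p = 5.40e-06) and Ltbp4, encoding a latent TGF-beta binding protein, at 34.6 and 25.9 CPM in WT and 6.94 and 3.67 CPM in Cav1KO (log2 fold change -2.34 ± 0.25, limma adjusted p = 9.34e-05). Of 35 receptor tyrosine kinase and ligand genes, 10 were higher and 16 lower. Ereg, an EGF family ligand gene, was at 135 and 131 CPM in WT and 24.9 and 28.2 CPM in Cav1KO (log2 fold change -2.28 ± 0.14, limma adjusted p = 3.90e-06). Areg, another, was at 7.18 and 7.92 CPM in WT and 0.0588 and 0 CPM in Cav1KO. Epha2, an ephrin receptor gene, was at 139 and 117 CPM in WT and 27.6 and 20.8 CPM in Cav1KO (log2 fold change -2.36 ± 0.14, limma adjusted p = 3.33e-06), and Fgfr2, an FGF receptor gene, at 9.19 and 9.52 CPM in WT and 47.7 and 40.1 CPM in Cav1KO (log2 fold change 2.11 ± 0.14, limma adjusted p = 6.11e-06). Vegfa, the angiogenic ligand gene, chosen after its values were seen, was at 98.9 and 95.5 CPM in WT and 38.7 and 37.9 CPM in Cav1KO (log2 fold change -1.32 ± 0.08, limma adjusted p = 3.32e-06).

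Wnt genes were mixed, with 7 of 26 higher and 10 lower. The ligand gene Wnt5b was at 29.8 and 37.8 CPM in WT and 1.65 and 1.81 CPM in Cav1KO (log2 fold change -3.66 ± 0.15, limma adjusted p = 3.00e-07) and Wnt4 at 1.0 and 1.14 CPM in WT and 15.2 and 16.4 CPM in Cav1KO (log2 fold change 3.02 ± 0.13, limma adjusted p = 4.98e-07). The secreted inhibitor genes Dkk3 and Notum were lower, Notum at 45.1 and 38.1 CPM in WT and 4.47 and 3.51 CPM in Cav1KO and Dkk3 at 27.3 and 29.7 CPM in WT and 0 and 0.219 CPM in Cav1KO, the latter from 0 and 4 reads. In the Notch pathway 6 of 11 genes were lower and 2 higher (Dll1 and Rbpj), of which 4 lower calls and 1 higher call held without any 1 of the stiff libraries, and the Rbpj call was lost in 3 of the 4 fits that left out a stiff library. The receptor gene Notch2 was at 190.4 and 172 CPM in WT and 77.8 and 64.4 CPM in Cav1KO (log2 fold change -1.34 ± 0.10, limma adjusted p = 1.29e-05) and the target gene Hes1, a transcriptional repressor, at 12.1 and 10.1 CPM in WT and 1.12 and 1.48 CPM in Cav1KO (log2 fold change -2.40 ± 0.18, limma adjusted p = 1.34e-05).

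Cholesterol synthesis stood apart between substrates. On stiff 15 of its 24 genes were higher in Cav1KO and 2 lower, with a median log2 fold change of 0.31, whereas on soft 4 were higher and 14 lower, with a median of -0.58. The effect was more positive on stiff in 18 of the 24, beside 6.0% of all genes, and more negative in none. Calls of this kind depended on the libraries, as stated above. How many of the 18 held with a library left out was not counted. Mvd, encoding mevalonate decarboxylase, was at 10.1 and 8.66 CPM in WT and 33.8 and 35.6 CPM in Cav1KO (log2 fold change 1.79 ± 0.11, limma adjusted p = 3.57e-06), and lies in the segment of chromosome 8 beyond 120 Mb described below. Sqle, encoding squalene epoxidase, was at 105 and 114 CPM in WT and 179 and 197 CPM in Cav1KO (log2 fold change 0.78 ± 0.08, limma adjusted p = 9.63e-05), and Dhcr7, of the final step, at 25.2 and 24.3 CPM in WT and 44.1 and 49.8 CPM in Cav1KO (log2 fold change 0.90 ± 0.09, limma adjusted p = 8.61e-05). Sc5d was at 45.3 and 47.9 CPM in WT and 79.2 and 81.4 CPM in Cav1KO and Idi1, encoding isopentenyl diphosphate isomerase, at 71 and 81.7 CPM in WT and 146 and 177 CPM in Cav1KO (with 17.3% of windows shared and so uncertain). Sqle had a log2 fold change of -0.084 on soft, a difference of 0.86 ± 0.12, limma adjusted p = 0.00752. The count of higher members was 9 without the first WT stiff library. Among 13 cholesterol export and trafficking genes Abca1 was higher and Soat1, Lrp1 and Vldlr lower, of which the Vldlr call alone held without any 1 of the stiff libraries.

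In fatty acid metabolism and storage 13 of 31 genes were higher and 9 lower. Fabp5, encoding the epidermal fatty acid binding protein, was at 91.6 and 105 CPM in WT and 682 and 707 CPM in Cav1KO (log2 fold change 2.81 ± 0.08, limma adjusted p = 4.25e-08), the same direction as Fabp4. The fatty acid importer gene Slc27a1 was at 22.2 and 22.7 CPM in WT and 54.6 and 63.6 CPM in Cav1KO (log2 fold change 1.35 ± 0.12, limma adjusted p = 2.70e-05). Plin2, encoding the coat protein of lipid droplets, was at 200.2 and 197 CPM in WT and 69.3 and 73.1 CPM in Cav1KO (log2 fold change -1.47 ± 0.07, limma adjusted p = 1.09e-06), and Pparg, encoding the adipogenic nuclear receptor, at 7.98 and 6.44 CPM in WT and 0.235 and 0.164 CPM in Cav1KO (log2 fold change -2.77 ± 0.16, limma adjusted p = 2.19e-06). Thus Fabp4 was near 0 in WT and high in Cav1KO while Pparg and Cebpa (5.07 and 5.64 CPM in WT and 1.41 and 0.877 CPM in Cav1KO) had the opposite order, and the adipocyte genes Adipoq, Plin1 and Lep were not among the listed genes.

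**Figure D3:**
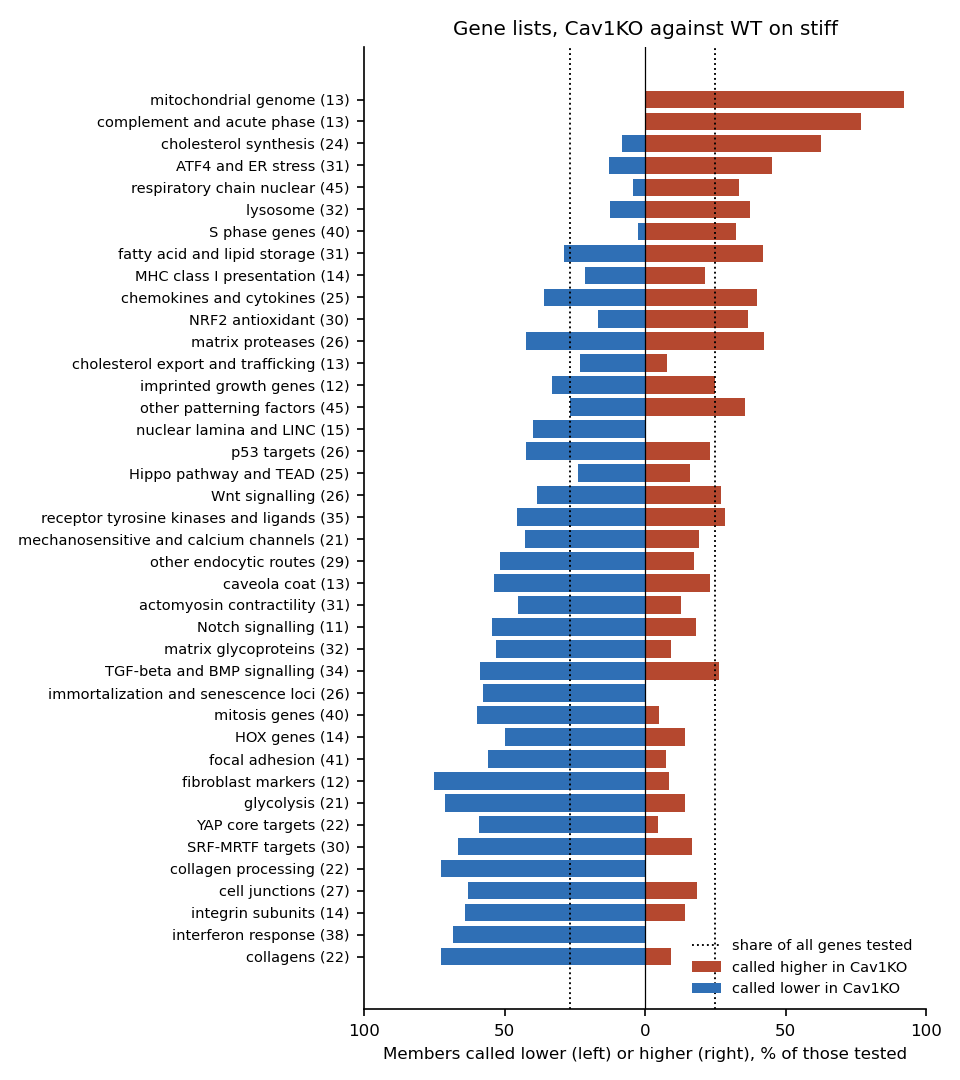
Bars give the share of the tested members of each gene list with at least 10 members tested that were called higher (right) or lower (left) in Cav1KO on stiff, with the number tested in brackets, and dotted lines mark 25.0% and 26.6% of all genes. Collagens, interferon genes, integrins and junction genes extend mainly to the left, and mitochondrially encoded, complement and cholesterol synthesis genes mainly to the right.

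Interferon-stimulated genes are induced through the factor complex ISGF3, which binds an element called ISRE. Of 38 such genes 26 were lower in Cav1KO on stiff and none higher, with a median log2 fold change of -0.86. Bst2, encoding the antiviral tether tetherin, was at 105 and 145 CPM in WT and 34.3 and 33.3 CPM in Cav1KO (log2 fold change -1.84 ± 0.21, limma adjusted p = 1.62e-04). Usp18, encoding the protease that removes ISG15, was at 8.99 and 17.8 CPM in WT and 1.88 and 2.69 CPM in Cav1KO (log2 fold change -2.07 ± 0.30, limma adjusted p = 5.22e-04). Rtp4 was at 18.1 and 24.1 CPM in WT and 6.77 and 5.1 CPM in Cav1KO and Xaf1 at 10.6 and 17.7 CPM in WT and 4.53 and 3.23 CPM in Cav1KO. The second WT library was the higher of the pair for all 4, and both WT libraries lay above both Cav1KO libraries. The count of lower members was 14 without the second WT stiff library and 16 without the second Cav1KO stiff library, and 13 held without any 1 of the stiff libraries. Irf7, Ifit2 and Mx1, chosen after their values were seen, did not pass the test (-0.73, 0.49 and 0.026). On soft 13 members were lower and 4 higher. The ISRE core, written as GAAANNGAAA or TTTCNNTTTC, was found before the start of 13 of 27 members with an entry, beside 2.98% of all windows. Bst2 and Gbp2, the latter an interferon-induced GTPase gene chosen after its values were seen, are shown because they fell and hold matches, in capitals (GRCm38.p6).
Bst2, chr8:71537473-71537722, minus strand: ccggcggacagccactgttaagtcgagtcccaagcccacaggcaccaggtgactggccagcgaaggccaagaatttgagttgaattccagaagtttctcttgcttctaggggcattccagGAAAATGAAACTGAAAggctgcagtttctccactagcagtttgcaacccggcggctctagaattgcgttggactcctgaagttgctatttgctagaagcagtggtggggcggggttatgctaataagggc
Gbp2, chr3:142620413-142620662, plus strand: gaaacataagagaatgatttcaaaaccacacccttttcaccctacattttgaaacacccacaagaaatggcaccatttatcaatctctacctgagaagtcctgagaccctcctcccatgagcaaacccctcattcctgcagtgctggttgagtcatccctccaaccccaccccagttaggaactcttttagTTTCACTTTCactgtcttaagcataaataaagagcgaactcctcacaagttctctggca
Bst2 held 2 overlapping matches, beginning 130 and 124 bases before the start, and Gbp2 held 1, at 59 bases, with Gbp2 at 51.9 and 54.5 CPM in WT and 30.7 and 26.9 CPM in Cav1KO (log2 fold change -0.87 ± 0.14, limma adjusted p = 0.00103).

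In antigen presentation, 3 of 14 MHC class I pathway genes were higher (Psmb9, Calr and Pdia3) and 3 lower (H2-K1, H2-T23 and Tap2). These are 21.4% in each direction, under the 25.0% and 26.6% of all genes. The Tap2 call was lost whichever stiff library was left out. H2-K1, a classical class I gene, was at 74.7 and 84.4 CPM in WT and 46.4 and 40.6 CPM in Cav1KO (log2 fold change -0.86 ± 0.21, limma adjusted p = 0.00935, a call lost without the second WT stiff library), and H2-T23, encoding the non-classical molecule Qa-1, at 44.3 and 60.9 CPM in WT and 0.118 and 0.274 CPM in Cav1KO (with 6.49% of windows shared and so uncertain). Chemokine and cytokine genes were divided, 10 of 25 higher and 9 lower. Il33, encoding a nuclear alarmin, was at 0.502 and 0.399 CPM in WT and 13.9 and 12.1 CPM in Cav1KO (log2 fold change 3.27 ± 0.14, limma adjusted p = 4.66e-07), the adhesion molecule gene Vcam1 at 25.2 and 29.6 CPM in WT and 166 and 148 CPM in Cav1KO (log2 fold change 2.48 ± 0.16, limma adjusted p = 5.77e-06) and Lif, encoding leukaemia inhibitory factor, at 40.7 and 38.3 CPM in WT and 7.77 and 7.67 CPM in Cav1KO (log2 fold change -2.22 ± 0.13, limma adjusted p = 2.73e-06). Complement and acute phase genes rose without an exception among those called, 10 of 13, with a median log2 fold change of 1.02. On soft all 13 were higher, with a larger median of 1.89. Lcn2, encoding the iron-scavenging lipocalin, was at 47.1 and 64.6 CPM in WT and 329.7 and 299 CPM in Cav1KO (log2 fold change 2.49 ± 0.14, limma adjusted p = 2.25e-06), haptoglobin (Hp) at 5.27 and 7.81 CPM in WT and 90.5 and 84.4 CPM in Cav1KO (log2 fold change 3.57 ± 0.23, limma adjusted p = 4.39e-06) and Saa3, encoding a serum amyloid, at 101 and 122 CPM in WT and 598 and 604 CPM in Cav1KO (log2 fold change 2.43 ± 0.12, limma adjusted p = 1.31e-06). C3, the central complement gene, was at 129 and 97.2 CPM in WT and 205 and 108 CPM in Cav1KO and did not pass the test on stiff (0.41 ± 0.29) but was higher on soft (3.40). The difference for C3 was -2.98 ± 0.41, limma adjusted p = 0.00752.

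The cell cycle lists had medians of opposite sign. S phase genes were higher in 32.5% and lower in 2.5%, and mitosis genes in 5% and 60%, beside 25.0% and 26.6% of all genes. Of 40 S phase genes 13 were higher and 1 (Cdc45) lower, with a median log2 fold change of 0.16, among them Gins2 at 32.1 and 36.5 CPM in WT and 87.9 and 104 CPM in Cav1KO (log2 fold change 1.45 ± 0.11, limma adjusted p = 1.36e-05) and Chaf1b at 26.9 and 27.5 CPM in WT and 66.4 and 70.3 CPM in Cav1KO (log2 fold change 1.30 ± 0.10, limma adjusted p = 1.59e-05), which act in replication and in nucleosome assembly. Gins2 and Cdt1, another higher member, lie in the segment of chromosome 8 beyond 120 Mb described below, and Chaf1b between 80 and 100 Mb of chromosome 16, also described below. Of 40 mitosis genes 24 were lower and 2 higher (Cdc25b and Mad2l1, the latter call lost without the first WT or the second Cav1KO stiff library), with a median of -0.45. Kif2c, a kinesin gene of the kinetochore, was at 72.6 and 60.8 CPM in WT and 43.1 and 33.2 CPM in Cav1KO (log2 fold change -0.80 ± 0.16, limma adjusted p = 0.00314) and Prc1, encoding a spindle midzone protein, at 100.5 and 82.5 CPM in WT and 56.2 and 46.9 CPM in Cav1KO (log2 fold change -0.82 ± 0.16, limma adjusted p = 0.00311). The count of lower mitosis genes was 11 without the first WT stiff library and 12 without the second Cav1KO stiff library. Mki67, the proliferation marker, was at 17.6 and 12.7 CPM in WT and 10.3 and 3.95 CPM in Cav1KO and did not pass the test (-1.09 ± 0.45).

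At loci tied to immortalization, 15 of 26 genes were lower and none higher. Trp53 was at 437 and 447 CPM in WT and 336 and 332 CPM in Cav1KO (log2 fold change -0.40 ± 0.08, limma adjusted p = 0.00395). Its target Cdkn1a, encoding p21, was at 7.08 and 6.44 CPM in WT and 4.65 and 3.73 CPM in Cav1KO (log2 fold change -0.59 ± 0.15, limma adjusted p = 0.0109, a call lost without the first WT or the second Cav1KO stiff library), and Cdkn2a, the locus of p16 and p19ARF, at 119 and 133 CPM in WT and 122 and 133 CPM in Cav1KO, which did not pass the test (0.018 ± 0.11). Both genotypes thus expressed Trp53 and Cdkn2a. Hmga2, encoding a chromatin protein of proliferating embryonic cells, was at 168 and 152 CPM in WT and 42.1 and 41.3 CPM in Cav1KO (log2 fold change -1.91 ± 0.09, limma adjusted p = 1.05e-06), Myc at 167 and 158 CPM in WT and 112 and 102 CPM in Cav1KO (log2 fold change -0.60 ± 0.10, limma adjusted p = 9.42e-04), Ccnd2, encoding cyclin D2, at 432 and 398 CPM in WT and 251 and 234 CPM in Cav1KO (log2 fold change -0.77 ± 0.07, limma adjusted p = 4.64e-05) and Cdkn2b, encoding p15, at 18.5 and 19.1 CPM in WT and 8.0 and 9.81 CPM in Cav1KO (log2 fold change -1.0 ± 0.12, limma adjusted p = 2.32e-04). Hmga1 was at 872 and 883 CPM in WT and 245 and 246 CPM in Cav1KO, with 51.6% of windows shared and so uncertain. Of 26 p53 targets 11 were lower and 6 higher, including Eda2r, a death receptor gene, at 7.98 and 7.7 CPM in WT and 1.24 and 0.932 CPM in Cav1KO (log2 fold change -2.09 ± 0.14, limma adjusted p = 7.04e-06) and Zmat3 at 57.7 and 54.6 CPM in WT and 105 and 112 CPM in Cav1KO (log2 fold change 0.93 ± 0.08, limma adjusted p = 1.88e-05).

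Glycolysis genes fell, 15 of 21, with 3 higher (Pfkfb3, Ldhb and Pfkm, the last a call lost with DESeq2, edgeR, the replicate block and every library left out in turn) and a median log2 fold change of -0.54. On soft 15 were lower and 3 higher, with a larger median fall of -1.03. Besides Slc16a3, the phosphofructokinase gene Pfkl was at 231 and 232 CPM in WT and 111 and 93.1 CPM in Cav1KO (log2 fold change -1.18 ± 0.09, limma adjusted p = 1.01e-05) and the hexokinase gene Hk2 at 131 and 111 CPM in WT and 63 and 47.8 CPM in Cav1KO (log2 fold change -1.13 ± 0.14, limma adjusted p = 2.59e-04). Ldhb, encoding the heart-type lactate dehydrogenase chain, was at 28.9 and 31.8 CPM in WT and 422 and 417 CPM in Cav1KO (log2 fold change 3.75 ± 0.15, limma adjusted p = 2.73e-07, with 16.6% of windows shared and so uncertain). Pfkfb3, encoding the kinase that makes the activator of phosphofructokinase, was at 13.1 and 10.1 CPM in WT and 36.2 and 29.7 CPM in Cav1KO (log2 fold change 1.43 ± 0.14, limma adjusted p = 5.64e-05). Gapdh, often a reference gene, was at 795 and 831 CPM in WT and 529 and 481 CPM in Cav1KO (log2 fold change -0.69 ± 0.08, limma adjusted p = 1.15e-04, with 16.1% shared and so uncertain), and Hprt, another reference gene, was at 182 and 223 CPM in WT and 214 and 252 CPM in Cav1KO and not called (0.20 ± 0.11). Of 45 nuclear genes of the respiratory chain 15 were higher (33.3%, beside 25.0% of all genes) and 2 lower (4.44%, beside 26.6%), with a median of 0.19. The lower ones were Ndufb7 and Cox6a1, the latter call lost with DESeq2, edgeR and every library left out in turn. Ndufb5 of complex I was at 87.4 and 104 CPM in WT and 273 and 329 CPM in Cav1KO (log2 fold change 1.64 ± 0.11, limma adjusted p = 6.67e-06) and Cox4i1 of complex IV at 219 and 253 CPM in WT and 548 and 633 CPM in Cav1KO (log2 fold change 1.32 ± 0.11, limma adjusted p = 1.81e-05). Cox4i1 lies in the segment of chromosome 8 beyond 120 Mb described below and Ndufb5 between 20 and 40 Mb of chromosome 3, where the median was 0.44 with 28 of 52 genes higher. Of the 13 protein-coding genes of the mitochondrial genome 12 were higher, with a median of 1.04, of which 8 calls held without any 1 of the stiff libraries. Together the 13 held only 1209 and 1030 CPM in WT and 2254 and 2988 CPM in Cav1KO. One of them, mt-Co2, was at or under 3 reads in both WT libraries, with a mean of 27.7 CPM in Cav1KO. How fully mitochondrial reads were counted was not tested. mt-Cytb, encoding cytochrome b, was at 36.8 and 30.7 CPM in WT and 67.2 and 120.1 CPM in Cav1KO (log2 fold change 1.39 ± 0.23, limma adjusted p = 0.00117), and mt-Atp8 at 96.1 and 70.6 CPM in WT and 228 and 353 CPM in Cav1KO. The second Cav1KO library stood above the first in both, and over all 19 mitochondrial genes tested, 14 of them higher with a median of 0.82, the median was 0.55 between the libraries numbered 1 and 1.22 between those numbered 2.

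The ATF4, NRF2 and lysosome lists had more members higher than lower, with 45.2%, 36.7% and 37.5% higher beside 25.0% of all genes. The NRF2 median was only 0.034. Channel and nuclear lamina lists went the other way, with 42.9% and 40% lower beside 26.6% of all genes. Of 31 ATF4 and ER stress genes 14 were higher and 4 lower (Vldlr, Ddit3, Phgdh and Aldh18a1), of which the Ddit3 call was lost with DESeq2, median centring and in 3 of the 4 fits that left out a stiff library, and 14 had a more positive effect on stiff than on soft. The amino acid transporter gene Slc7a5 was at 155 and 157 CPM in WT and 373 and 387 CPM in Cav1KO (log2 fold change 1.28 ± 0.09, limma adjusted p = 9.42e-06) and lies in the segment of chromosome 8 beyond 120 Mb described below. Sdf2l1, encoding an ER chaperone cofactor, was at 32.5 and 40.6 CPM in WT and 73.1 and 85.8 CPM in Cav1KO (log2 fold change 1.10 ± 0.14, limma adjusted p = 2.21e-04). Pdia4, encoding an ER disulfide isomerase, was at 194 and 170.2 CPM in WT and 406 and 326 CPM in Cav1KO (log2 fold change 1.0 ± 0.11, limma adjusted p = 1.50e-04). All 3 lay higher in both Cav1KO libraries. Of 30 NRF2 and antioxidant genes 11 were higher and 5 lower (Slc7a11, Hmox1, Pgd, Gsta1 and Gsta4), the latter count running from 2 to 8 among the alternatives. Nqo1, a quinone reductase gene and NRF2 target, was at 87 and 87.9 CPM in WT and 168 and 208 CPM in Cav1KO (log2 fold change 1.09 ± 0.11, limma adjusted p = 5.69e-05), and Fth1, encoding the ferritin heavy chain, at 3624 and 4041 CPM in WT and 7068 and 7679 CPM in Cav1KO (log2 fold change 0.94 ± 0.11, limma adjusted p = 1.98e-04), while Slc7a11, encoding the cystine importer, fell from 36.5 and 30.1 CPM in WT to 12.8 and 12.6 CPM in Cav1KO (log2 fold change -1.32 ± 0.13, limma adjusted p = 5.14e-05). Of 32 lysosomal genes 12 were higher and 4 lower, among them Man2b1, Gaa and Atp6v0d1. The Gaa call was lost in 3 of the 4 fits that left out a stiff library and that of Atp6v0d1 without the second WT library. Gpnmb, a lysosomal glycoprotein gene, was at 0.854 and 0.741 CPM in WT and 23.2 and 17.6 CPM in Cav1KO (log2 fold change 3.56 ± 0.14, limma adjusted p = 2.75e-07) and Gla, encoding alpha-galactosidase A, at 36.1 and 37.5 CPM in WT and 106 and 123 CPM in Cav1KO (log2 fold change 1.61 ± 0.10, limma adjusted p = 3.02e-06). Mechanosensitive and calcium channel genes had 9 of 21 lower and 4 higher (Trpm4, Orai2, Piezo1 and Trpm7, of which only the Orai2 call held without any 1 of the stiff libraries), with a lower count of 2 without the first WT and 3 without the second Cav1KO stiff library. Of these Lrrc8a, encoding the volume-regulated anion channel subunit, was at 45.1 and 40.7 CPM in WT and 28.2 and 24.6 CPM in Cav1KO (log2 fold change -0.68 ± 0.10, limma adjusted p = 4.98e-04). Among 15 nuclear lamina and LINC genes 6 were lower, 2 of them without the first WT stiff library and 3 without the second Cav1KO stiff library, and Lmna, encoding lamin A and C, was at 1083 and 1016 CPM in WT and 473 and 424 CPM in Cav1KO (log2 fold change -1.23 ± 0.10, limma adjusted p = 1.85e-05).

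**Figure D4:**
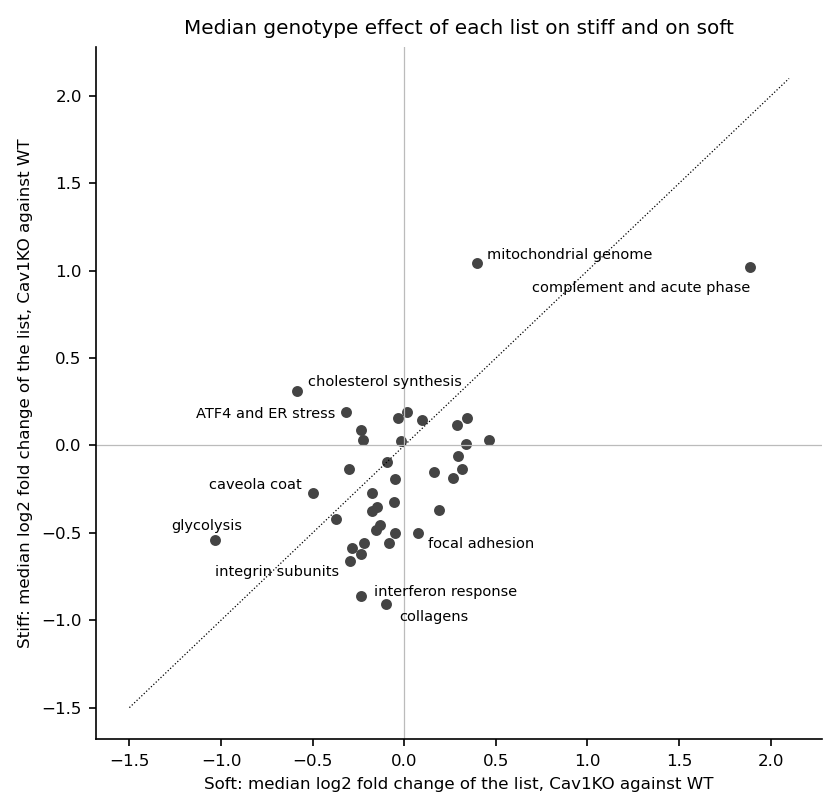
Each point is a gene list with at least 10 members tested, with its median log2 fold change of Cav1KO against WT on soft on the x axis and on stiff on the y axis, and the dotted line marks equal effects. Collagens, focal adhesion genes and interferon genes lie below the line, more negative on stiff, and cholesterol synthesis, ATF4 and mitochondrially encoded genes lie above it.

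Genes of body position differed in both directions. Of 39 HOX genes 14 were tested, with 7 lower and 2 higher (Hoxa2 and Hoxc13, the latter call lost without the first Cav1KO stiff library). Hoxa7 was at 41.6 and 39.7 CPM in WT and 4.77 and 4.93 CPM in Cav1KO (log2 fold change -2.83 ± 0.11, limma adjusted p = 2.03e-07). Hoxa9 was at 9.29 and 9.75 CPM and Hoxa10 at 14.7 and 17.9 CPM in WT, and both had 1 read or fewer in each Cav1KO library. Among 45 other patterning factors 16 were higher and 12 lower. Foxc2 was at 23.1 and 23.8 CPM in WT and 1.0 and 0.822 CPM in Cav1KO (log2 fold change -3.68 ± 0.13, limma adjusted p = 1.39e-07), Foxf1 at 11.4 and 13.7 CPM in WT and 85.3 and 89.6 CPM in Cav1KO (log2 fold change 2.71 ± 0.11, limma adjusted p = 2.55e-07) and Osr2 at 0.251 and 0.57 CPM in WT and 15.4 and 15.8 CPM in Cav1KO (log2 fold change 3.56 ± 0.15, limma adjusted p = 4.66e-07), each a factor of mesenchymal patterning. Foxc2 and Foxf1 both lie in the segment of chromosome 8 beyond 120 Mb described below. None of the 14 HOX genes had a called difference between substrates. Among imprinted growth genes, Dlk1, encoding a non-canonical Notch ligand, was at 508 and 393 CPM in WT and 102 and 75.8 CPM in Cav1KO (log2 fold change -2.33 ± 0.16, limma adjusted p = 6.54e-06), opposite to Igf2 and Peg3. Xist, the RNA of the inactive X chromosome, was present in all stiff libraries, at 89.7 and 75.2 CPM in WT and 61.8 and 47.7 CPM in Cav1KO (log2 fold change -0.59 ± 0.20, limma adjusted p = 0.0367), a call lost in 3 of the 4 fits that left out a stiff library.

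Of the markers of other cell types, 2 of 13 macrophage and blood markers were listed, 2 of 11 endothelial, 1 of 14 epithelial and mesothelial, 3 of 16 muscle, 5 of 14 neural, 4 of 9 adipose and 6 of 15 cartilage and bone markers. The summed level of the 12 fibroblast markers was 10257 and 10033 CPM in WT and 6126 and 4959 CPM in Cav1KO. That of the blood markers was 2.11 and 3.19 CPM in WT and 24.1 and 29 CPM in Cav1KO, of the endothelial markers 3.97 and 4.22 CPM in WT and 17.4 and 13.7 CPM in Cav1KO, and of the muscle markers 67.1 and 55.5 CPM in WT and 34.5 and 22.8 CPM in Cav1KO. The neural markers summed to 124 and 89.6 CPM in WT and 54 and 47.6 CPM in Cav1KO, the adipose markers to 16.3 and 15.4 CPM in WT and 110.0 and 114 CPM in Cav1KO and the cartilage and bone markers to 1144 and 1177 CPM in WT and 726 and 735 CPM in Cav1KO. The sums of blood, endothelial and adipose markers were thus higher in Cav1KO and the others lower. The adipose sum was mostly Fabp4, and of the other adipose markers Lipe was higher (0.94) and Pparg (-2.77) and Cebpa (-1.58) lower, with a list median of -0.32. The endothelial genes Flt1 and Egfl7 were higher (0.94 and 2.07), the Flt1 call being lost without the first Cav1KO or the second WT stiff library. Of the 12 fibroblast markers, 9 were lower and 1 higher (Pdgfrb), among them S100a4 at 393 and 459 CPM in WT and 80.2 and 102 CPM in Cav1KO (log2 fold change -2.22 ± 0.12, limma adjusted p = 1.73e-06). Msln, the mesothelial marker, was at 32.1 and 36.4 CPM in WT and 3.71 and 2.74 CPM in Cav1KO, Sox2, Stmn2 and Nes of the neural list were lower and Tubb3 (1.69) and Map2 (1.14) higher, and Sox9 of the cartilage list was at 140.0 and 119 CPM in WT and 73.7 and 54 CPM in Cav1KO. Adult beta-globin (Hbb-bs) was at 1.56 and 2.51 CPM in WT and 23 and 27.9 CPM in Cav1KO. The part of cell composition in these differences was not tested.

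Genotype effects were not even along the genome. Chromosome 4 had 383 of its 790 tested genes lower (48.5%) and 77 higher (9.75%), with a median log2 fold change of -0.32, and chromosome 15 had 236 of 486 higher (48.6%) and 60 lower (12.3%), with a median of 0.28. Named genes on chromosome 4 include Hspg2, Epha2, Fblim1, Kif2c and Cdkn2b, which were lower, Abca1, which was higher, and Cdkn2a, not called. Those on chromosome 15 include Dab2 and Igfbp6, which were higher, and Itga5, Col2a1 and Khdrbs3, which were lower. The largest shift of a segment of 20 Mb with at least 20 genes was at the end of chromosome 8, beyond 120 Mb, where 74 of 84 genes were higher and 1 lower (Foxc2), with a median of 1.08 on stiff and 1.13 on soft. Among the genes named above, Mvd, Gins2, Cox4i1, Slc7a5, Itgb1, Piezo1, Foxf1 and Tubb3 lie there and were higher. Chromosome 16 between 80 and 100 Mb had a median of 0.55 with 35 of 65 genes higher and holds Adamts5, Chaf1b and Jam2, and chromosome 19 between 40 and 60 Mb had a median of -0.48 with 82 of 128 lower and holds Pdlim1 and Aldh18a1. Chromosome 1 was shifted upwards by 0.17. The medians on soft were -0.39 for chromosome 4, 0.27 for chromosome 15 and 0.12 for chromosome 1. On chromosome 4 the median was negative in all 8 segments of 20 Mb, from -0.45 to -0.17. On chromosome 3 the shift was local, with a median of -0.58 and 136 of 202 genes lower between 80 and 100 Mb, the segment of Nes, Lmna, Notch2, Phgdh and S100a4, but a median of 0.55 between 0 and 20 Mb, that of Fabp4 and Fabp5. On chromosome 6 the segment from 0 to 20 Mb, which holds Cav1, had a median of 0.33, with 19 of 43 genes higher and 10 lower. The next one, from 20 to 40 Mb, had a median of 0.41 with 45 of 73 genes higher. Chromosome shifts of this kind move with the genotype in both substrates, and their part in the calls of single genes was not tested.

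**Figure D5:**
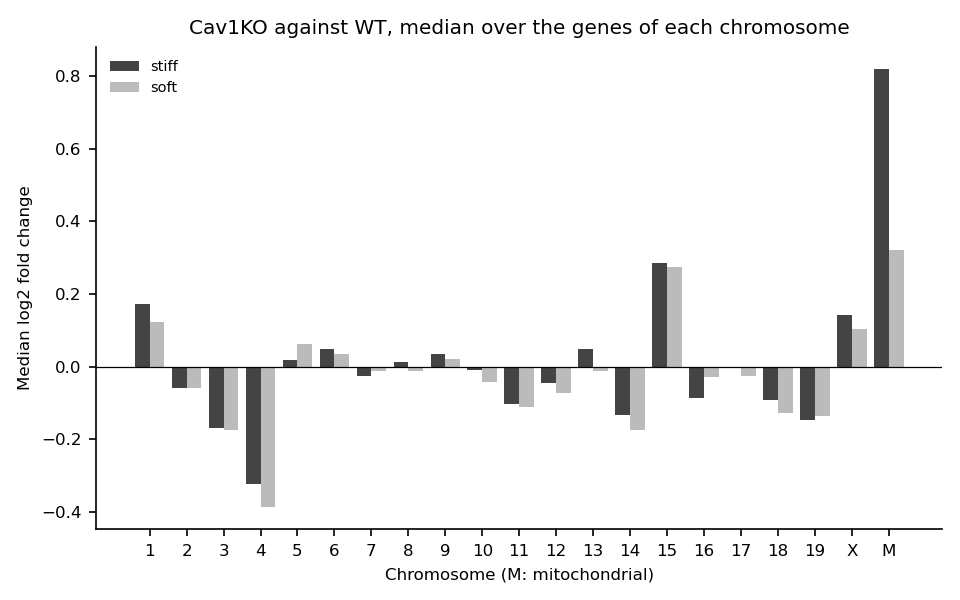
Bars give the median log2 fold change of Cav1KO against WT over the tested genes of each chromosome, dark on stiff and light on soft. Chromosome 4 lies lowest on both substrates and chromosome 15 highest among the nuclear chromosomes, and the mitochondrial genes differ more on stiff than on soft.

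Cav1 lies at chr6:17306335-17341452 of GRCm38 on the plus strand. Of the 10 listed genes that lie within 2 Mb of it, itself included, Gm26809, Tes, Cav2 and Met were lower and Capza2, St7, Lsm8 and Gm5874 higher, and Mdfic was not called. Tes, encoding a LIM protein of focal adhesions, was at 175 and 185 CPM in WT and 87.7 and 101 CPM in Cav1KO (log2 fold change -0.93 ± 0.09, limma adjusted p = 3.89e-05). Met, encoding the receptor of hepatocyte growth factor, was at 90.8 and 75.9 CPM in WT and 65.3 and 49.4 CPM in Cav1KO on stiff (log2 fold change -0.54 ± 0.13, limma adjusted p = 0.00967, a call lost without the first WT stiff library) but higher in Cav1KO on soft (log2 fold change 0.84), a difference of -1.38 ± 0.19, limma adjusted p = 0.00752. Capza2, encoding an actin capping protein subunit, was at 260.3 and 287 CPM in WT and 353 and 387 CPM in Cav1KO (log2 fold change 0.43 ± 0.08, limma adjusted p = 0.00162). Genes beside the disrupted locus are inherited with it, and their differences cannot be told apart from those of the disruption.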

How the data were processed

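Polyadenylated RNA from 500 ng of total RNA of MEFs kept 24 h on the gels was sequenced as single reads of 60 nt in 8 libraries, 2 for each of 4 groups. Per the labels, the authors used CASAVA 1.8.2, cutadapt and RSEM 1.2.3 with GRCm38. By its label the deposited signal is TMM-normalized CPM, which is scaled between libraries. The tool that scaled it, the annotation and any filter on low genes are not given in the sources used here. Whole reads could be recovered for 100% of values (tolerance 0.05). Gene positions came from GENCODE M21, matched by identifier for 12460 of 12528 genes, and promoter windows from RefSeq. A window of 60 bases of a gene's GENCODE transcripts counted as shared where a transcript of another gene in the files held it.

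The test took genes that reached 1 CPM in 2 or more of 8 libraries and was run on log2(CPM + 1) with limma 3.58.1 in R 4.3.3, with a mean-variance trend, 4 groups and Benjamini-Hochberg adjustment over all 12494 genes. The fit was tested on simulated data. Alternatives used edgeR 4.0.16, DESeq2 1.42.0, other pseudocounts, filters, scalings and the libraries left out in turn. Members and gene lists were chosen with earlier results of these data known. Named genes were the 12 largest called rises and falls among protein-coding genes with a mean of at least 5 CPM, no overlap of genotypes and at most 5% of windows shared. Further ones were up to 5 called members of each list with the largest change and a mean of at least 1 CPM, all members of the short lists (caveola coat, YAP targets, 14-3-3, sex-linked and immortalization genes), Ctgf, Cyr61, Ankrd1, Yap1, Lats1, Lats2, Nf2, Gapdh and Hprt, genes within 2 Mb of Cav1, genes present in one genotype only, and the 5 largest differences between substrates in each direction. A few genes that meet this rule are not reported here.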

Additional observations from a re-analysis of the deposited data

Results flagged for a closer look

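The effect of genotype, Cav1KO against WT, was tested for a difference between the stiff and the soft substrate in the same limma fit, and 76 genes named above had an adjusted p under 0.05 for it, of 1309 among all 12494 genes tested. The values in brackets are the log2 fold change on stiff minus that on soft. For Igf2, Dkk3, Ch25h, Peg3, Pdlim1, H2-T23 and Mcpt8 the sign turned with DESeq2 and edgeR, and for Mmp3 with a larger pseudocount, as given in the last section. Khdrbs3, Areg, Cdh13 and Igfbp3 were near 0 in Cav1KO on both substrates. Their values therefore follow WT and cannot show a change of the genotype effect. For Khdrbs3 Cav1KO was at 0 CPM throughout, and WT at 37.4 and 39.0 CPM on stiff and 20.6 and 23.2 CPM on soft. The same limit holds for any other gene near 0 in one genotype. Among contractile, adhesion and junction genes the effect was more negative on stiff for Acta2 (-0.99), Actg2 (-0.72), Cnn1 (-1.0), Mylk (-1.23), Myl12b (-0.55), Pdlim1 (-1.05), Parva (-0.61), Sorbs3 (-0.91), Itga3 (-0.75) and Itga5 (-0.76) and more positive for Itgb7 (1.08), Jam3 (0.54), Cdh13 (1.16) and Murc (1.10). Among YAP targets and their regulators the effect was more negative on stiff for Cyr61 (-0.63), Amotl1 (-1.59), Rbms3 (-0.92) and Nuak2 (-0.82) and more positive for Igfbp3 (0.76) and Tead2 (0.57). Among matrix genes and their enzymes the effect was more negative on stiff for Col1a1 (-1.86), Col4a5 (-1.08), Fn1 (-1.66), Hspg2 (-1.23), Tnc (-1.46), Postn (-1.57), Thbs2 (-0.83), Lox (-0.48), Bmp1 (-0.99), Adam12 (-1.48) and Ltbp4 (-1.47) and more positive for Mmp3 (0.90) and Ctsl (1.17). Among growth factors, receptors and inhibitors the effect was more negative on stiff for Areg (-1.46), Met (-1.38), Igf2 (-1.23), Igfbp5 (-1.76) and Lrp1 (-1.60) and more positive for Dkk3 (0.89), Tgfbr1 (0.56) and Igfbp6 (1.01). Among lipid genes the effect was more negative on stiff for Plin2 (-0.69), Fabp5 (-0.42) and Ch25h (-1.13) and more positive for Mvd (0.99), Sqle (0.86), Idi1 (2.08), Sc5d (0.66) and Slc27a1 (0.71). Among immune and complement genes the effect was more negative on stiff for C3 (-2.98) and more positive for H2-T23 (1.48), Calr (0.77), Pdia3 (0.47) and Mcpt8 (2.85). Among cell cycle and immortalization genes the effect was more negative on stiff for Mki67 (-2.73) and Ccnd2 (-0.50) and more positive for Cdkn1a (2.07), Cdkn2b (0.66) and Hmga1 (0.59). Among stress, antioxidant and lysosomal genes the effect was more negative on stiff for Gaa (-0.66) and more positive for Nqo1 (1.33), Slc7a5 (0.64), Slc7a11 (1.23), Sdf2l1 (1.14), Gsta1 (1.22), Pgd (0.36) and Gla (0.66). Among the other named genes the effect was more negative on stiff for Arhgap26 (-0.80), Khdrbs3 (-0.78), Nrxn2 (-1.08) and Peg3 (-1.01) and more positive for Hprt (0.64), Lsm8 (0.75), Rasl11a (0.78), Stmn2 (1.15) and Tmem26 (1.01). Of these, 9 were called in every fit that left out 1 of the 8 libraries. No group had 4 or more libraries, so single libraries were not tested for distance from the others.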

How the results depend on the processing

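The numbers of genes higher (3127) and lower (3329) on stiff stayed within 1.5 times under every alternative but the one that also required a 2-fold change (830 and 883). They were 2786 and 2880 with DESeq2 and 3121 and 3296 with edgeR on the recovered reads, and ranged from 2336 to 3051 and from 2496 to 3446 when 1 library was left out. Median centring raised the share of higher among the calls, with 3423 higher and 2939 lower genes. The counts of differences between substrates moved more. The 750 more positive and 559 more negative effects became 391 and 314 without a mean-variance trend and 174 and 297 with a 2-fold change required, and the more negative ones 361 with edgeR. When 1 library was left out they ranged from 74 to 1689 and from 36 to 1747, lowest without the first Cav1KO library on soft and highest without the first Cav1KO library on stiff, and stayed within 1.5 times only without the second WT library on stiff. The cause was not tested. For genes near 0 in one genotype the sign of that difference depended on the tool. With DESeq2 and edgeR it was 0.51 and 0.39 for Ch25h, -0.72 and -0.65 for Dkk3, -0.060 and -0.012 for H2-T23, 0.12 and 0.10 for Igf2, -0.74 and -1.40 for Mcpt8, 1.41 and 2.07 for Pdlim1 and 0.51 and 0.30 for Peg3, and for Mmp3 it was -0.017 with a pseudocount of 5 CPM. Of the 266 named genes called on stiff, 229 were called with the same sign whichever library was left out, and 0 changed sign. Deviations of the libraries with the same number correlated at 0.42 between WT and Cav1KO on stiff and at -0.37 between WT on stiff and on soft. The other pairs of groups gave 0.14, -0.24, 0.065 and -0.044. Whether libraries with the same number share a source of spread was not tested. With the replicate block 3117 genes were higher and 3328 lower on stiff, and 755 and 569 differed between substrates. That block fits the same effect of the number in all groups, so it cannot absorb one shared by the stiff libraries only.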
